A study of Homo sapiens with 12 samples.

Results

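Clustered replication-dependent histone genes were taken as all protein-coding genes of the RefSeq annotation of GRCh38.p14 whose symbols name a clustered H1, H2A, H2B, H3 or H4 gene. This gave 68 of 20037 protein-coding genes, namely 5 H1, 17 H2A, 18 H2B, 13 H3 and 15 H4 genes. Most of them (54) lay on chromosome 6 between 25726063 and 27893891. Another 11 lay on chromosome 1 between 149782689 and 149887965, 2 further along chromosome 1 (H2AC25 and H2BC26), and 1 on chromosome 12 (H4C16). Their spans ran from 386 to 29682 bp with a median of 494 bp, against a median of 24115 bp for all protein-coding genes.

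Replication-dependent histone genes supply the H1, H2A, H2B, H3 and H4 proteins that package newly made DNA. Their transcription peaks in S phase, and their mRNAs end in a stem-loop in place of a poly(A) tail. They sit in clusters of many near-identical copies, often as divergent H2A and H2B pairs that share a promoter. STAT5B is a transcription factor activated by cytokine receptors, and NR3C1 is the glucocorticoid receptor.

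Binding of STAT5B and NR3C1 was mapped by chromatin immunoprecipitation and sequencing (ChIP-seq) in SUPT-1 cells, an established human cell line from T-cell acute lymphoblastic leukaemia. All cells carried a doxycycline-inducible STAT5B, either the activating mutant N642H (N642H line) or wild type (WT line), and were induced with doxycycline. The lines were selected with puromycin, and the labels do not give the amount of either STAT5B form. Cells of each line were given 250 µg/ml prednisolone, a synthetic glucocorticoid, for 16 hours or were left untreated. Each of the 8 combinations of antibody, line and treatment had 1 library and 1 deposited peak list, while the 4 input libraries have no list analysed here. With 1 library per group no difference between groups could be tested, and the counts below describe these libraries. The lists held 446 (STAT5B, N642H with prednisolone), 766 (STAT5B, WT with prednisolone), 4542 (STAT5B, N642H untreated) and 2267 (STAT5B, WT untreated) regions. For NR3C1 they held 2888 (N642H with prednisolone), 995 (WT with prednisolone) and 2 regions in each untreated line. Peak lists carry no expression values, so the cell type was not checked against its markers, and no histone mRNA level is given.

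A gene counted as linked where the summit of a region, its point of highest signal, fell in the gene's span or within 2 kb of it. Histone genes were linked to STAT5B mainly in untreated cells. With prednisolone the STAT5B lists were shorter. In the N642H line 1 of 68 histone genes was linked (1.47%), beside 1.74% of all protein-coding genes and 0.938% of the short ones. In the WT line 5 of 68 were linked (7.35%), beside 3.64% and 1.94%. The N642H share with prednisolone was thus close to its background.

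In the untreated lists 30 of 68 genes were linked in the N642H line (44.1%) and 21 of 68 in the WT line (30.9%). By the same rule 19.2% of all protein-coding genes were linked in the N642H line and 9.94% in the WT line. Among protein-coding genes of at most 5 kb, which is the size of 63 of the 68 members, the shares were 11.4% and 5.94%. The 22 other protein-coding genes lying inside the histone clusters were linked in 2 cases in each line (9.09%).

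NR3C1 was linked to 2 of 68 histone genes in the N642H line with prednisolone (2.94%), where 7.1% of all protein-coding genes and 1.66% of the short ones were linked. Its share thus lay between these backgrounds. No histone gene was linked to NR3C1 in the WT line with prednisolone (background 2.61%, short genes 0.407%) or in either untreated line (background 0.00998% in each, 2 genes).

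**Figure D1:**
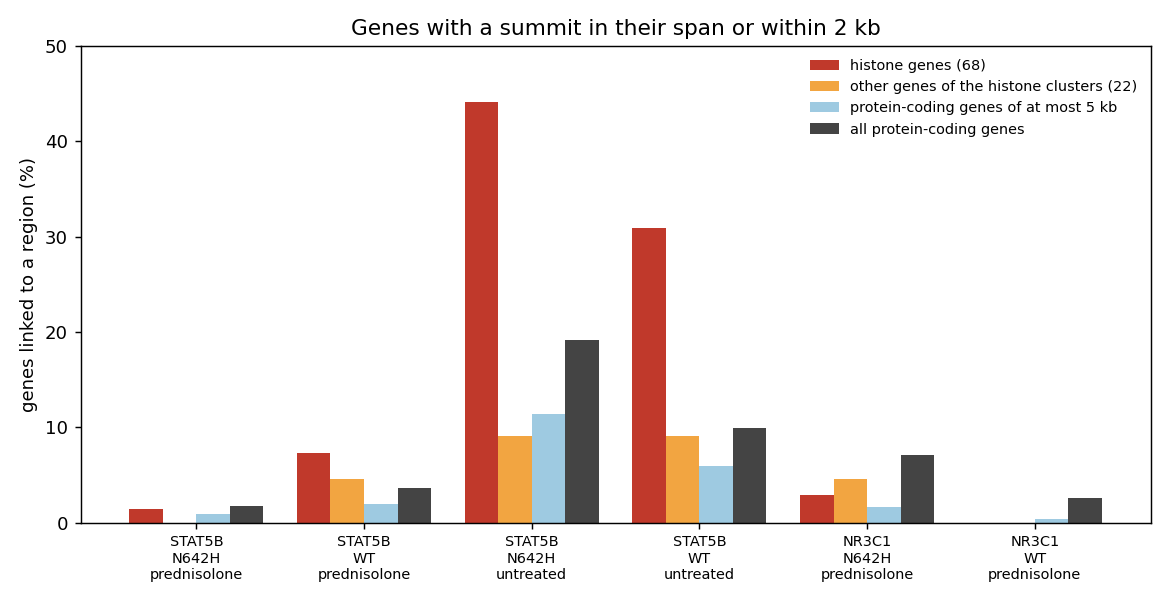
Percent of genes linked to a region (summit in the span or within 2 kb) in each of the 6 longer lists, for the 68 histone genes, the 22 other genes of the histone clusters, short protein-coding genes (at most 5 kb) and all protein-coding genes. The histone bars stand at or below 7.35% in the 4 prednisolone lists, against 44.1% (N642H) and 30.9% (WT) in the untreated STAT5B lists. Each bar is 1 library.

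Because neighbouring genes share regions, the regions were also counted once each. With prednisolone, histone genes held 1 STAT5B region in the N642H line (0.224% of the list, exact Clopper-Pearson 95% interval 0.00568 to 1.24) and 3 in the WT line (0.392%, 0.0808 to 1.14). In untreated cells they held 23 regions in the N642H line (0.506%, 0.321 to 0.759) and 16 in the WT line (0.706%, 0.404 to 1.14). The 4 intervals overlap, and they cover counting error only. They also treat regions as independent, although several lie side by side or at near-identical gene copies. Over all lists the regions merged into 32 separate loci, of which 23 occurred in 1 list, 6 in 2, 2 in 3 and 1 in 4. Of the 68 genes, 34 were linked in no list, 16 in 1, 12 in 2, 5 in 3 and 1 in 4.

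In untreated cells the histone regions were of middling strength in the WT list and mostly weaker than the list's median in the N642H list. For each peak the authors' files give a fold enrichment over local background and a −log10 q. These values describe a peak within its own list and do not measure a change between lists. In untreated N642H cells the 23 regions had folds from 4.26 to 7.6 with a median of 5.29, against a median of 6.13 for the whole list, and the strongest ranked 633 of 4542 by −log10 q. In untreated WT cells the 16 regions had folds from 4.83 to 9.46 with a median of 6.23, against 6.25 for the list, and the strongest ranked 135 of 2267. The median −log10 q was 5.46 in N642H (6.7 for the list) and 5.56 in WT (5.3 for the list). By rank, 8 of 23 and 9 of 16 regions lay in the upper 50% of their lists. Pileups of ChIP fragments at the summits, solved from the deposited values, were 12 to 24 fragments in the N642H list and 10 to 20 in the WT list. When each of the 6 longer lists was reduced to its 446 strongest regions, no histone gene was linked in untreated N642H cells and 3 were in untreated WT cells. The share of all genes at this cut is not given. For scale, the STAT5B list of N642H with prednisolone, with 446 regions, linked 1.74% of all protein-coding genes and 0.938% of short ones. Counts this small are therefore not read as a result about histone genes.

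H4 genes encode a core histone that is nearly invariant in evolution. In untreated N642H cells 8 of 15 H4 genes were linked, and in untreated WT cells 9 of 15. H1 genes, for the linker histones, were linked in 3 of 5 cases in N642H and 1 of 5 in WT. H2A genes were linked in 8 and 5 of 17 cases, and H2B genes in 6 and 4 of 18, in N642H and WT. H3 genes were linked in 5 of 13 cases in N642H and 2 of 13 in WT. Counted instead by summits within 1 kb of an annotated start, for the 63 members that have one in the table, H4 genes had 8 of 13 in N642H and 9 of 13 in WT. All members together then had 23 of 63 (36.5%) in N642H and 16 of 63 (25.4%) in WT, beside 16.0% and 8.25% of all protein-coding genes with an annotated start. The other 5 members were H2AC12, H3C11, H3C12, H4C1 and H4C3. With the summit required inside the gene, 2 H4 genes were linked in N642H and 8 in WT. The share of all genes under that rule is not given. Differences between classes were not tested, since genes of a class share sequence and some share regions.

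**Figure D2:**
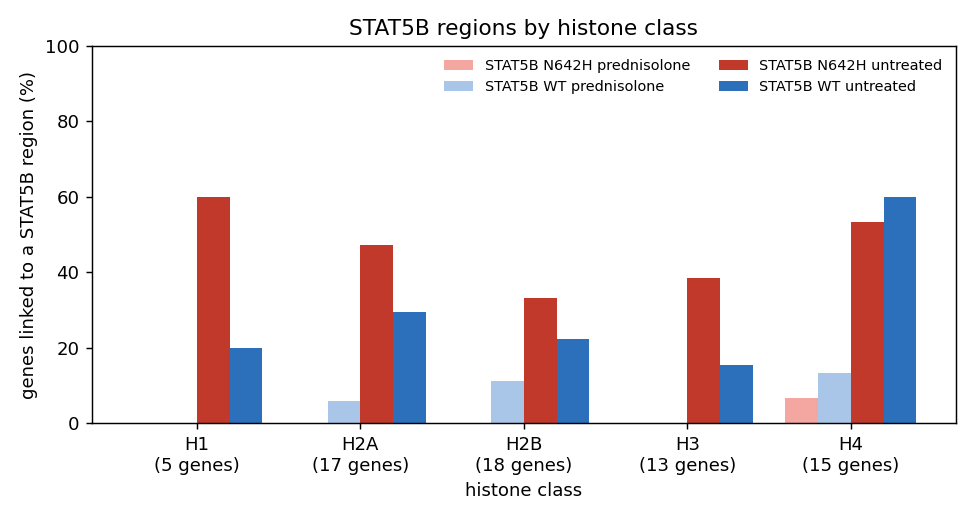
Percent of the genes of each histone class linked to a STAT5B region in the 4 STAT5B lists. No class passes 13.3% with prednisolone, and H4 genes stand at 53.3% in untreated N642H cells and 60% in untreated WT cells. Each bar is 1 library.

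H4C12, an H4 gene on chromosome 6 (27831174 to 27831560, minus strand), was the only histone gene with a STAT5B region in all 4 STAT5B lists. With prednisolone its region had a fold of 8.2 (−log10 q 7.65, rank 143 of 446) in the N642H line and 9.28 (−log10 q 9.68, rank 115 of 766) in the WT line. Without it the fold was 7.34 (−log10 q 10.3, rank 982 of 4542) in the N642H line and 7.25 (−log10 q 9.3, rank 285 of 2267) in the WT line. All 4 regions overlapped, and their summits lay between 38 bp before and 3 bp after the annotated start. H4C12 had no NR3C1 region in any list.

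H4C9, another H4 gene, lies inside the long annotated span of H2BC12, so both genes were linked by the same region. That region was called in 3 lists, with a fold of 5.75 (−log10 q 3.93) in prednisolone-treated WT cells, 7.6 (−log10 q 12.4) in untreated N642H cells and 9.46 (−log10 q 11.8) in untreated WT cells. It was the strongest histone region of both untreated lists. Its summits lay 35 bp before the H4C9 start with prednisolone and 10 bp before it in both untreated lists. A second region, 229 bp after the start, was called in untreated WT cells (fold 6.95).

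The promoter windows of these genes are shown because the summits fall inside them. H4C11 is added as the near copy of H4C12, H1-3 because it was the histone gene with both an NR3C1 and a STAT5B region at its start, and H2AC11 as a divergent H2A and H2B promoter. Each window runs from 250 bases before to 50 after the annotated start, 5′ to 3′ on the gene's strand, from RefSeq (GRCh38.p14). Positions are counted from 1 at the 5′ end, so that the start follows base 250. Capitals mark matches, on either strand, to the 6 motifs searched. The windows are chr6:27831511-27831810 (minus strand) for H4C12, chr6:27823842-27824141 (plus) for H4C11, chr6:27139032-27139331 (plus) for H4C9, chr6:26234938-26235237 (minus) for H1-3 and chr6:27132793-27133092 (plus) for H2AC11.
H4C12: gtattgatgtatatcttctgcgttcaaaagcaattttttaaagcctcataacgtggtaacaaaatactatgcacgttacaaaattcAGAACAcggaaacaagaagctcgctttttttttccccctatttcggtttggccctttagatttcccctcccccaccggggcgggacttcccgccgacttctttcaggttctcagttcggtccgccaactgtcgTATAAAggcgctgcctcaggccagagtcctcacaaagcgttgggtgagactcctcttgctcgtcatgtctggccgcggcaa
H4C11: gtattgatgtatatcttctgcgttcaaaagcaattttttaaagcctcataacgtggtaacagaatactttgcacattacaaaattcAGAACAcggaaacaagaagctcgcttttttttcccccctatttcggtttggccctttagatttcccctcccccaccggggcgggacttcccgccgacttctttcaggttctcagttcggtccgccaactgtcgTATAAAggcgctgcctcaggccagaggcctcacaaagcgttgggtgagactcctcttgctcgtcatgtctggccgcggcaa
H4C9: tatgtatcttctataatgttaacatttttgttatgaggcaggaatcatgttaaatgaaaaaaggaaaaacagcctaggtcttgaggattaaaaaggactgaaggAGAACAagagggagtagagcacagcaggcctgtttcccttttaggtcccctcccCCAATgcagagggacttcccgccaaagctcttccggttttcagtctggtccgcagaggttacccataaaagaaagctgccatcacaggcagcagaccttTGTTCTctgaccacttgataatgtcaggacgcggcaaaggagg
H1-3: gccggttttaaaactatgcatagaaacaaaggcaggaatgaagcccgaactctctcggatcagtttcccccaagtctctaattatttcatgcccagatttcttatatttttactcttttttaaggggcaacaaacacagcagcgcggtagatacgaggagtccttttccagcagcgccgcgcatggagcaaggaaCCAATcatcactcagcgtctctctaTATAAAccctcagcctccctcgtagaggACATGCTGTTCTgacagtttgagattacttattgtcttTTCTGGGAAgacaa
H2AC11: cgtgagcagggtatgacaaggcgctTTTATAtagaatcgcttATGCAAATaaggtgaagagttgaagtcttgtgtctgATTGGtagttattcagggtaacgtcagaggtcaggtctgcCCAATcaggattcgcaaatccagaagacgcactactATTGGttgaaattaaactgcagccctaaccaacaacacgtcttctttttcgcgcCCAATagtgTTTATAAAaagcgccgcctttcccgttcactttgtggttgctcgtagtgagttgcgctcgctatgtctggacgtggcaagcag

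In the H4C12 window the STAT5B summits fell at bases 246 (N642H with prednisolone), 237 (WT with prednisolone), 213 (N642H untreated) and 254 (WT untreated). All 4 regions covered the TATA box match at bases 220 to 225. In the H4C9 window the summits fell at base 216 (WT with prednisolone) and at base 241 in both untreated lists. Neither window holds the STAT5 motif searched.

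Near-identical copies limit what can be said of single genes. The windows of H4C11 and H4C12 differed at 5 of 300 bases (98.3% identity). H4C11 had STAT5B regions of fold 7.06 (−log10 q 9.44) in untreated N642H cells and 5.53 (−log10 q 3.93) in untreated WT cells, and none with prednisolone. The windows of H4C14 and H4C15 on chromosome 1 were identical over all 300 bases. Those of H3C14 and H3C15 matched at 296 of 296 aligned bases, and those of H2AC18 and H2AC19 at 299 of 299. H3C4 and H2AC7 share an annotated start, so their compared window is the same place in the genome and not a copy. The handling of reads that map to several places is not given in the sources used here. It is therefore not known how reads were assigned between such copies. Each of these pairs, H3C4 and H2AC7 included, was also counted once, an alternative chosen after seeing the data. Then 25 genes were linked in untreated N642H cells and 19 in untreated WT cells.

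The remaining H4 genes were linked in untreated cells only. H4C14 had a fold of 7.36 (−log10 q 9.91) in N642H and 4.83 (−log10 q 3.53) in WT. The long span of H4C15 also holds the regions of H3C15 and H2AC19, and at its own start H4C15 had 4.71 in N642H and 6.94 in WT. H4C13 had 5.6 in N642H and 6.25 in WT, and it also shared a WT region inside the neighbouring H3C11 (fold 7.19). H4C5 (5.77 in N642H, 7.18 in WT) and H4C2 (4.26 in N642H, 6 in WT) were linked in both lines by regions that did not overlap. H4C8 was linked in WT alone (5.64). H4C1, H4C3, H4C4, H4C6, H4C7 and H4C16 had no region in any list.

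Besides the H2BC12 and H4C9 locus, the locus shared by H2BC4 and H2AC6 was the only H2A or H2B locus called in 3 lists. Its fold was 6.82 (−log10 q 4.72) in prednisolone-treated WT cells, 5.87 (−log10 q 7.89) in untreated N642H cells and 6.21 (−log10 q 6.65) in untreated WT cells. The summits lay between 774 and 830 bp after the H2BC4 start, outside the promoter window. On chromosome 1, H2BC21, H2AC20 and H2AC21 were linked together, with a fold of 6.66 (−log10 q 8.82) in untreated N642H cells and 6.16 (−log10 q 4.75) in untreated WT cells. Those regions did not overlap, the WT one lying at the H2AC20 start and the N642H one 563 bp before the H2AC21 start. H2AC17 was likewise linked by separate regions, with a fold of 5.59 in N642H cells and of 5.42 in WT cells. The WT region also linked H2BC17. The divergent pair H2BC11 and H2AC11 had a region in untreated N642H cells (fold 4.8), with its summit 3 bp before the H2AC11 start. H2AC18, H2AC19, H2AC7, H2BC5 and H2BC7 were linked in untreated N642H cells and H2AC4 in untreated WT cells. The other 8 H2A and 11 H2B genes were linked in no list.

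The H3 genes mostly shared regions with neighbours. H3C11 was linked in both untreated lists, together with H4C13. H3C14, H3C15, H3C4 and H3C12 were linked in untreated N642H cells, with best folds of 5.11, 5.79, 4.7 and 5.59. H3C2, together with H2AC4, was linked in untreated WT cells (fold 5.18). The other 7 H3 genes had no region in any list.

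**Figure D3:**
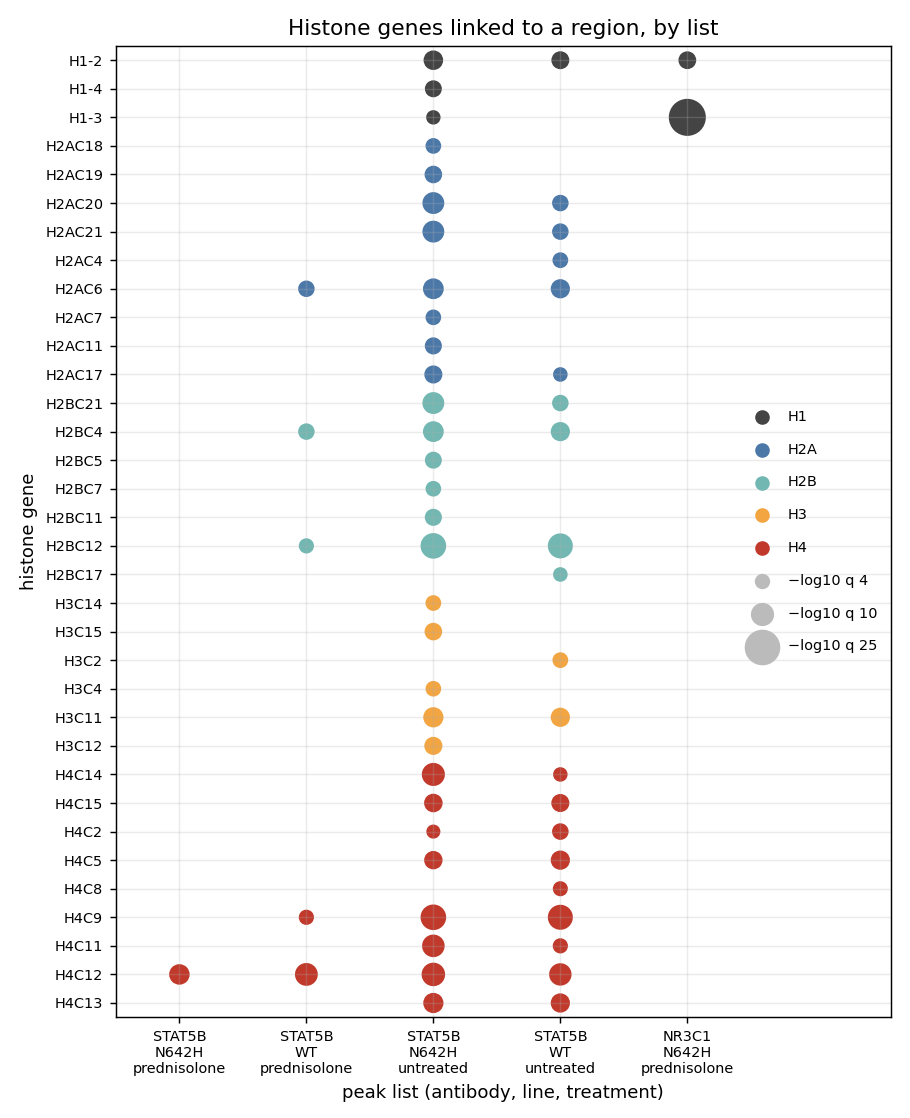
The 34 histone genes linked in at least 1 list, in rows by class and position, against the 5 lists with a histone region. Dot area is proportional to the −log10 q of the strongest linked region, colour gives the class, and genes in neighbouring rows can share a region. H4C12 has a dot in all 4 STAT5B lists, and the largest dot is the NR3C1 region of H1-3 (−log10 q 27.2).

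The summits lay close to the genes, more closely than the linking rule required. In untreated N642H cells the farthest linked summit was 563 bp outside a histone gene, and the next STAT5B summit beyond the rule was 24346 bp away, near H1-1. In untreated WT cells these distances were 136 bp and 11607 bp. Within 250 bp of the nearest histone gene start lay 12 of 23 summits in N642H (52.2%) and 12 of 16 in WT (75%), beside 39.8% and 41.5% of all regions of these lists for any protein-coding start. Since histone genes are short and the rule asks for nearness, this comparison is a description. Of the summits whose nearest annotated start was that of an H4 gene, 7 of 8 in N642H and 9 of 11 in WT lay within 250 bp of it. For the other classes these counts were 5 of 15 and 3 of 5. All these counts use the starts of the 63 members that have one, so some summits went to a neighbour. A WT summit inside H3C11, which has no annotated start, was counted to H4C13 at 1268 bp. An N642H summit beside H3C12, also without one, was counted to H2AC17 at 2329 bp. The class counts are therefore approximate.

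**Figure D4:**
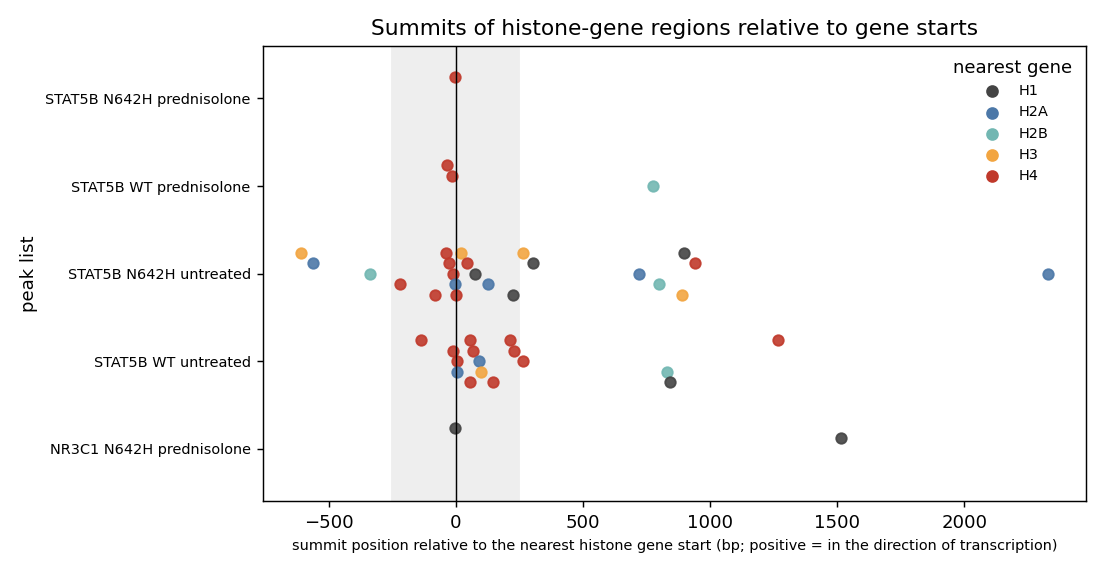
Summit positions of the histone-gene regions relative to the nearest annotated histone gene start in bp, by list, with positive values in the direction of transcription. Each dot is 1 region coloured by the class of that gene, the grey band marks 250 bp to either side, and the vertical spread within a list carries no meaning. Of the summits nearest to an annotated H4 start in the untreated lists, 7 of 8 (N642H) and 9 of 11 (WT) fall in the band. The WT summit at 1268 bp lies inside H3C11, which has no annotated start here.

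Regions of the lines counted as shared if they had at least 1 bp in common. In untreated cells 17 histone genes were linked to STAT5B in both lines, 13 in N642H alone and 4 in WT alone. Of the 17, 11 were linked by overlapping regions and 6 by different regions. Over all protein-coding genes 3841 were linked in N642H and 1992 in WT. The split of those genes by line is not given, so the histone split has no background beside it. Of the N642H histone regions 8 of 23 (34.8%) overlapped a WT region, beside 1352 of 4542 (29.8%) over the whole list. Of the WT histone regions 8 of 16 (50%) overlapped an N642H region, beside 1392 of 2267 (61.4%). Neither share was tested against that of its whole list. The direction of the difference in gene counts depended on the rule. With the summit required inside the gene, 11 genes were linked in N642H and 14 in WT, and with lists of equal length 0 and 3. Shares of all protein-coding genes under these rules are not given. The change of direction is therefore not read as a result about histone genes.

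With prednisolone fewer histone regions were called, as for STAT5B regions in general. In the N642H line the 1 histone region called with prednisolone was also called without it, which is 1 of 23 untreated histone regions (4.35%), beside 312 of 4542 untreated regions overall (6.87%). In the WT line all 3 were also called without it, which is 3 of 16 untreated regions (18.8%), beside 450 of 2267 (19.9%). No histone gene was linked to STAT5B with prednisolone that was not also linked without it in the same line. This rests on 1 gene in N642H and 5 genes in WT. Over all STAT5B regions called with prednisolone, 314 of 446 (70.4%) in N642H and 454 of 766 (59.3%) in WT were also called in untreated cells. The STAT5B lists were shorter with prednisolone in both lines, so list length and a change at histone genes cannot be told apart.

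NR3C1 was linked to H1-3 and H1-2, genes of linker histones, in the N642H line with prednisolone. The H1-3 region (chromosome 6, 26234865 to 26235117) had a fold of 10.78 and a −log10 q of 27.2, ranking 569 of 2888. Its summit held a solved pileup of 39 fragments over a local background of 2.71 and lay 4 bp before the annotated start. At H1-2 the NR3C1 region was weaker (fold 5.22, −log10 q 5.58, rank 2476) and lay beyond the 3′ end of the gene, 784 bp from its span. The next NR3C1 summit of this list lay 127245 bp from H4C16. In the WT line with prednisolone the nearest was 263587 bp from H2AC21 (fold 5.41).

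H1-3 was also linked to STAT5B in untreated N642H cells (fold 4.59, −log10 q 3.48, rank 4153 of 4542, 12 fragments at the summit), and that region overlapped the NR3C1 region. It had no STAT5B region in the other 3 STAT5B lists. Of the untreated N642H histone STAT5B regions, 1 of 23 (4.35%) overlapped an NR3C1 region of this line with prednisolone. Over the whole STAT5B list 805 of 4542 did (17.7%). Of the histone NR3C1 regions, 1 of 2 overlapped such a STAT5B region, beside 803 of 2888 over the NR3C1 list (27.8%). Neither share was tested. In the window printed above, the NR3C1 summit fell at base 247, 2 bases from a match to the glucocorticoid receptor core ACANNNTGT at bases 249 to 257. A match to the STAT5 motif TTCNNNGAA stood at bases 287 to 295, inside both regions and 31 bp from the STAT5B summit. Of the 63 histone promoter windows, that of H1-3 alone held the STAT5 motif. H1-2 had STAT5B summits beyond its 3′ end in untreated N642H (fold 6.13) and WT (fold 6.67) cells, in regions that overlapped each other but not the NR3C1 region, and 1 within the gene in N642H (fold 4.26). H1-4 shared regions with H2BC5 in untreated N642H cells (best fold 5.29), and H1-1 and H1-5 had none in any list. With prednisolone, 0 of 1 histone STAT5B region in N642H overlapped an NR3C1 region, beside 239 of 446 over the list (53.6%). In WT these counts were 0 of 3 and 141 of 766 (18.4%). So few histone regions cannot show a difference from the lists, and none was tested.

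Motifs were searched on both strands of the promoter windows, of which 63 belonged to members and 15843 to protein-coding genes in all. The STAT5 motif TTCNNNGAA was found in 1 of 63 members (1.59%), beside 6.97% of all promoters. For the glucocorticoid receptor core ACANNNTGT these shares were 3.17% and 3.73%. The shorter glucocorticoid receptor hexamer AGAACA, which can overlap the core, was found in 31.7% of members and 11.2% of all promoters. The basal elements of histone promoters were frequent. The octamer ATTTGCAT, bound by POU2F1 in H2B promoters, was found in 14 of 18 H2B and 11 of 16 H2A windows and in none of 13 H4 windows, beside 1.7% of all promoters. Windows of divergent H2A and H2B genes can overlap, so the same match can count for both classes. CCAAT was found in all windows of the H1, H2A, H2B and H3 genes and in 3 of 13 H4 windows (23.1%), beside 36.4% of all promoters. TATAAA was found in 66.7% of members and 9.63% of all promoters. Members with an untreated STAT5B summit within 1 kb of the start held AGAACA in 9 of 29 windows, and those without one in 11 of 34. A match is a description of these letters, and binding at them was not tested.

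Other histone-related genes were followed for comparison. With prednisolone, STAT5B was linked to no gene of the 3 lists below (variants, processing, chaperones) in N642H cells, beside 1.74% of all protein-coding genes. In WT cells it was linked to 1 of 12 chaperone genes (HIRA, 8.33%) and 3 of 16 processing genes (CPSF2, NCBP2 and SYMPK, 18.8%). No variant gene was linked there, and the share of all protein-coding genes was 3.64%. NCBP2 and SYMPK were named after their values were seen. The counts that follow stand beside 19.2% (N642H) and 9.94% (WT) of all protein-coding genes linked in untreated cells, and no difference from these was tested. Genes for transcription and mRNA processing of histones were linked to STAT5B in 9 of 16 cases (56.2%) in untreated N642H cells and 5 of 16 (31.2%) in untreated WT cells, with a median span of 31350 bp. They included CPSF2, a subunit of the cleavage complex (fold 9.05 in N642H and 5.86 in WT), SLBP, which binds the histone mRNA stem-loop (5.6 and 10.4), ZNF473, a processing factor (6.93 in N642H), and CPSF3, the cleavage nuclease (7.22 in N642H). Histone chaperones, with a median span of 34238.5 bp, were linked in 5 (41.7%) and 3 (25%) of 12 cases in N642H and WT, among them SSRP1, a subunit of the FACT complex (9.62 and 9.25), HIRA (8.86 and 6.42) and DAXX (6.99 in N642H), which deposit H3.3, and CHAF1A, a subunit of the CAF-1 complex (6.74 and 6.67). Histone variants outside the clusters were linked in 2 (18.2%) and 1 (9.09%) of 11 cases, close to the background: H2AZ1 (5.13 and 5.34) and H3-3A (4.57 in N642H). NR3C1 was linked to H2AZ2 alone, in prednisolone-treated N642H cells (fold 5.36). Of the other genes inside the clusters, HMGN4, which encodes a nucleosome-binding protein, was linked to STAT5B in WT cells with prednisolone (5.59) and in both untreated lines (5.99 in N642H and 5.03 in WT). These HMGN4 folds belong to regions that did not overlap, as do the paired untreated folds of HIRA and of H2AZ1. A weaker untreated N642H region of HMGN4 (3.43) overlapped its WT region with prednisolone. One of HIRA (4.07) overlapped its untreated WT region. STAT5B was also linked to TRIM38 in untreated N642H cells (8.57) and to ABT1 in untreated WT cells (5.25). SLC17A3 was linked to NR3C1 in N642H cells with prednisolone (5.85).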

How the data were processed

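ChIP-seq libraries of SUPT-1 cells had 1 deposited narrowPeak list each. BWA, MACS2 and deepTools were named, without versions, with the build hg38, per the submitters' processing notes. For each peak the authors deposited a fold (ratio of the ChIP signal at the summit over its local background), −log10 p and −log10 q values of at least 2 for q, and a score equal to 10 times the −log10 q cut to a whole number. No p-value was recomputed.

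Regions on unplaced and other minor sequences were dropped, with coordinates on hg38 counted from 1. Genes, starts and promoter sequences came from RefSeq tables of GRCh38.p14. Pileup and background were solved from fold (pseudocount 1) and −log10 p, and a whole number solved 100% of peaks in the 2 untreated STAT5B lists and 99.1% in the NR3C1 list of prednisolone-treated N642H cells. It solved 89% for STAT5B in prednisolone-treated N642H cells and at most 17.7% in the 2 prednisolone lists of the WT line, for which no pileup is given. Depth per library is not given in the lists. On simulated data 400 of 400 pileups and all links in 20 of 20 runs were recovered. Shares have exact Clopper-Pearson 95% intervals. The members, lists and tests were chosen with earlier results of these data known. Named with values are members linked in 2 or more lists and those at the 8 strongest histone regions of each list (at most 30), and up to 4 genes of each comparison list, while the other linked members were added after their values were seen. Python 3.11.15, pandas 2.3.3 and scipy 1.17.1 were used. Alternatives were the link distance, linking by overlap or by start, stricter q and fold, equal list lengths, other overlap rules, other backgrounds and removal of high-background regions.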

Additional observations from a re-analysis of the deposited data

How the results depend on the processing

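No paired analysis was possible because each group held 1 library. Leaving out high-background regions, link distances of 1 and 5 kb and linking by any overlap left every count within 1.5 times. In the order STAT5B in N642H and WT with prednisolone, then untreated, then NR3C1 in N642H with prednisolone, the gene counts of 1, 5, 30, 21 and 2 moved as follows. With the summit inside the gene they were 0, 2, 11, 14 and 0, and with lists cut to 446 regions 1, 1, 0, 3 and 0. A −log10 q of at least 5 left 1 gene in WT with prednisolone and 10 in untreated WT. Linking by start within 1 kb left 3 genes in WT with prednisolone and 1 for NR3C1. Regions inside genes numbered 0, 2, 11, 14 and 0, and with equal lists 1, 1, 0, 2 and 0. A −log10 q of at least 5 left 1 region in WT with prednisolone, 14 in untreated N642H and 9 in untreated WT. A fold of at least 5 left 14 in untreated N642H, and linking by start left 1 for NR3C1. N642H minus WT in untreated cells (9 genes) turned to -3 with summits inside genes and to -3 with equal lists, and was 3 at a fold of at least 5. Genes linked in both (17) fell to 4, 0, 10 and 10 with summits inside genes, equal lists, q and start. Prednisolone minus untreated in N642H (-29) was -11 with summits inside genes and turned to 1 with equal lists, and both-linked genes (1) were 0 in each. In WT the difference (-16) was -9 by q and -2 with equal lists, and both-linked genes (5) were 2, 1, 1 and 3 inside genes, by q, with equal lists and by start. STAT5B minus NR3C1 with prednisolone in N642H (-1) was 0 inside genes and by start and turned to 1 with equal lists. In WT (5) it was 2, 1, 1 and 3 inside genes, by q, with equal lists and by start. Backgrounds over short genes were 0.938%, 1.94%, 11.4% and 5.94% for the 4 STAT5B lists, and over the other cluster genes 0% and 9.09% in N642H with prednisolone and untreated. For NR3C1 with prednisolone they were 1.66% (N642H) and 0.407% (WT) over short genes and 4.55% and 0% over the other cluster genes. Stricter settings keep fewer regions by construction, and other causes were not tested. Shares of all genes are given only for the 2 kb rule and, for STAT5B in untreated cells, for starts within 1 kb. Without replicate libraries or read depths, none of these counts has an error between cultures.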
